A study of Mus musculus with 6 samples.

Results

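The nuclear genes of the respiratory complexes I, II, III and V were described in inguinal adipose tissue (iAT) of young mice. Genes were taken by symbol, as those starting with Nduf (without the Ndufaf assembly factors), Uqcr or Atp5, together with *Sdha*, *Sdhb*, *Sdhc*, *Sdhd* and *Cyc1*. This gave 68 of the 19831 genes listed, of which 38 are named for complex I, 4 for complex II, 9 for complex III and 17 for complex V. By their known roles 64 of the 68 encode subunits of these complexes, and the others are *Ndufa4*, *Ndufa4l2*, *Atp5s* and *Atp5sl*. The subunits of complex IV, cytochrome c oxidase, were left out and served as a comparison. Over both genotypes the lowest mean value of the 68 was 197 normalized counts, and all passed the minimum of 10 used here.

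RNA was sequenced from iAT of 3 wild-type and 3 Npffr1-KO samples, all taken at postnatal day 6 from mice kept specific pathogen-free. Npffr1 is a receptor for neuropeptide FF and related peptides, and the study compared the genotypes to learn which transcripts its loss alters. The labels give no strain, sex, number of animals per sample or kind of deletion, and do not say which cells lack the receptor. They do not state that the samples came from separate animals, so that the spread between them may be technical. The files used here hold 1 value per gene and genotype, a read count normalized by the authors for library size. No spread between samples was therefore available, no test was run, and every difference given is a difference between 2 values without a replicate check. Labels could not be checked on the targeted gene, since *Npffr1* had a value of only 1.12 in wild-type and of 0.855 in Npffr1-KO tissue, a level of a few reads.

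The respiratory chain lies in the inner mitochondrial membrane. Complex I takes electrons from NADH and complex II takes them from succinate, both pass them to coenzyme Q, and complex III passes them on to cytochrome c. Complexes I, III and IV pump protons, and complex V, the ATP synthase, makes ATP as the protons flow back. In thermogenic adipocytes the uncoupling protein Ucp1 lets protons bypass complex V, so that respiration releases heat, whereas white adipocytes hold fewer mitochondria. Core subunits of complex I carry the electron path, and its accessory subunits surround and stabilise them. Complexes I, III and V also hold subunits encoded in mitochondrial DNA. None of the 10 mitochondrial genes looked for was in the table, so that only the nuclear part of each complex is described.

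All 68 genes had a higher value in Npffr1-KO than in wild-type iAT, where 51.2% of the 15309 genes past the minimum mean did. The value was at least 25% higher for 56 of the 68, compared with 12.0% of all genes. None of the 68 was at least 20% lower, compared with 11.6% of all genes. The median log2 ratio of Npffr1-KO over wild-type was 0.43 for the 68 genes and 0.01 for all genes. Ratios ranged from 0.10 for *Atp5sl* to 0.70 for *Cyc1*. Summed over the 68 genes, the authors' values were 214075 in wild-type and 284853 in Npffr1-KO, a ratio of 1.33. This sum was 0.925% of all listed values in wild-type and 1.20% in Npffr1-KO tissue. Since whole tissue was sequenced, more cells of a type and more RNA per cell cannot be told apart.

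Much of this difference was shared by other short genes. The 68 genes are short, with 44 of them under 1000 bases, compared with 7.79% of all genes. Across all 15309 genes the log2 ratio was related to the listed gene length, with a Spearman rho of -0.38 over genes, given as a description because genes of a library are not independent. The median ratio was 0.27 among genes of 64 to 837 bases, the class that holds 39 of the 68, and -0.15 among the longest genes. Within the 68 genes the same rho was -0.17. After the median of genes of like length was subtracted, in 20 classes of equal size, 64 of the 68 genes remained above 0, compared with 50.0% of all genes. Their median was then 0.21, and 8 genes or 11.8% were at least 25% higher, compared with 8.20% of all genes. Centring on length together with mean left 9 genes, compared with 9.37% of all genes, and centring on GENCODE length left 29, compared with 9.25%. The direction thus held for nearly all genes, whereas the share past 25% was close to that of the whole table with the listed length and above it with the GENCODE length. What relates the ratio to length was not tested.

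**Figure D1:**
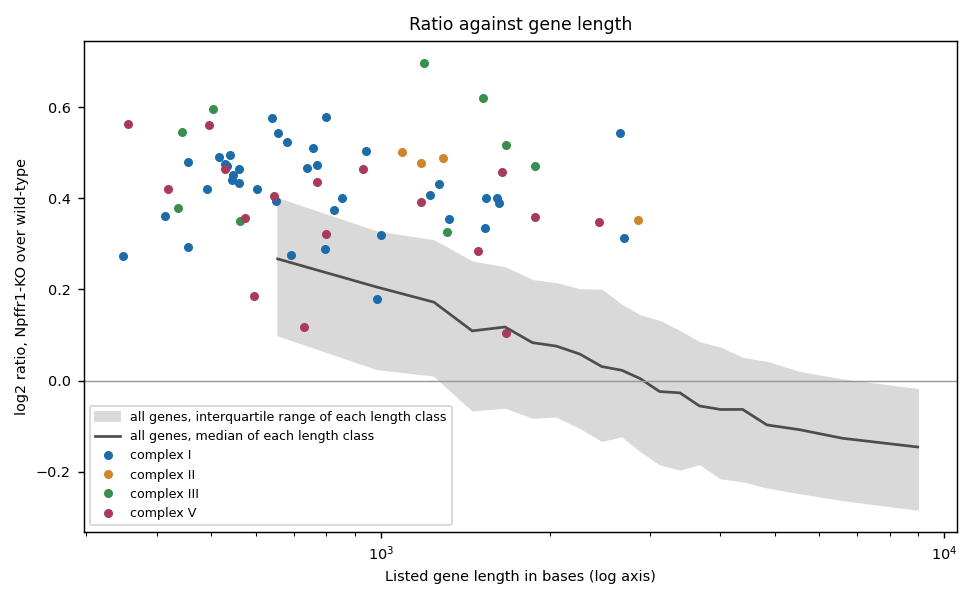
The log2 ratio of Npffr1-KO over wild-type (vertical axis) is plotted against listed gene length in bases (log axis) for the 68 genes, coloured by complex, with the median (line) and interquartile range (grey band) of all 15309 genes in 20 length classes. The line descends from 0.27 for the shortest to -0.15 for the longest genes, and 64 of the 68 points lie above the median of their own class.

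Levels were compared between genes as normalized counts per kilobase of listed length. Complex V had the highest median wild-type level per kilobase with 5402, followed by complex III with 3256, complex II with 2802 and complex I with 2304. In Npffr1-KO tissue the order was the same, with medians of 7647, 4660, 3795 and 3240. The median of all genes was 193 per kilobase in wild-type tissue, so that the 4 complexes belonged to the abundant transcripts of iAT. The order rests on the division by length, because the undivided values put complex II first, then V, III and I, while division by the GENCODE length left it the same. No spread between samples was available to tell neighbours in this order apart.

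Within complexes the levels were unequal, although subunits of one complex are assembled in fixed proportions. Among subunits the highest level per kilobase of listed length exceeded the lowest 13.0-fold in complex I, 1.86-fold in complex II, 3.23-fold in complex III and 7.37-fold in complex V. With the genes that are no subunits the range was 15.3-fold in complex I and 122-fold in complex V, from *Atp5s* to *Atp5b*. These ranges depend on the length used, and per kilobase of GENCODE length those of the subunits were 27.2-fold, 2.58-fold, 4.67-fold and 24.2-fold. The lowest subunit of complex I was *Ndufa11* by the listed length and *Ndufb2* by that of GENCODE, and that of complex V was *Atp5g1* by both. *Atp5b*, the catalytic beta subunit, was the most abundant of the 68 genes in wild-type iAT with 14562 per kilobase. Between the ratio of the genotypes and the wild-type level per kilobase, Spearman rho was 0.06 across the 68 genes, given as a description.

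**Figure D2:**
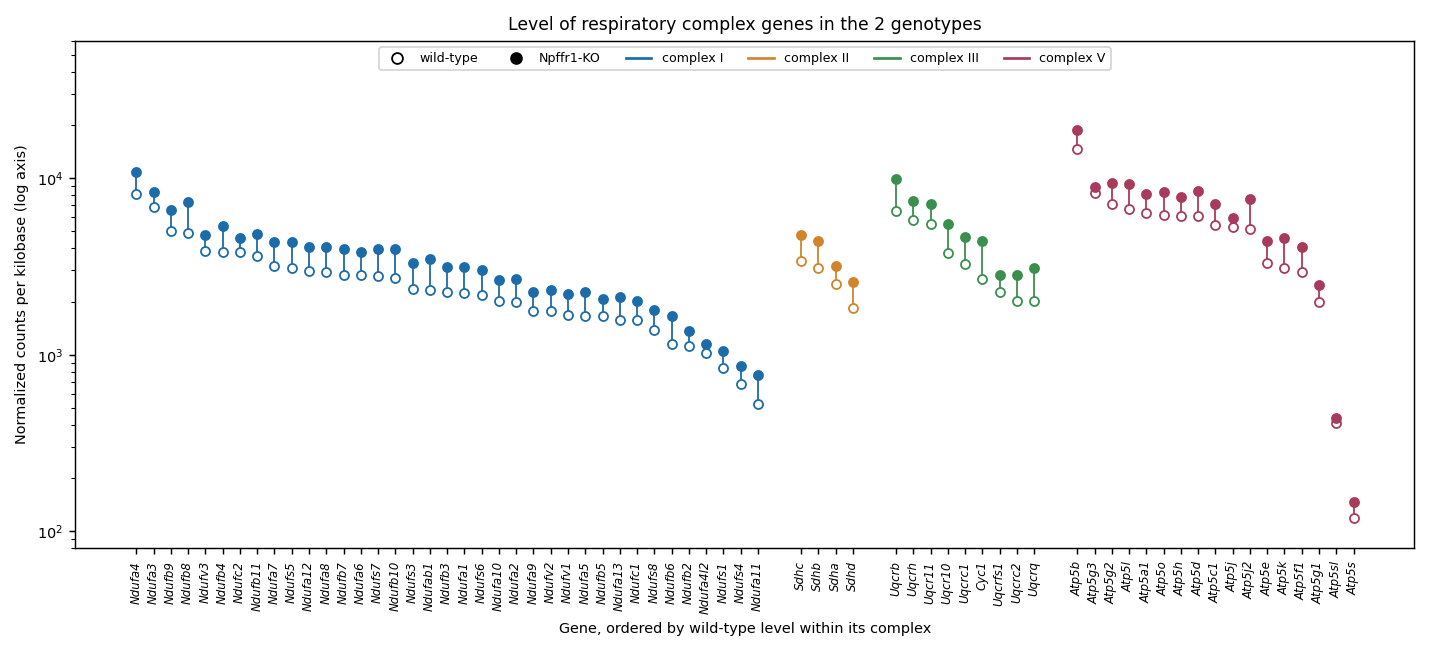
Of the 68 genes, 67 are shown, each with its wild-type (open circle) and Npffr1-KO (filled circle) value in normalized counts per kilobase on a log axis, ordered by wild-type level within complexes I, II, III and V; each circle is 1 value per genotype without an error. All filled circles lie above the open ones, *Atp5b* is the highest at 14562 in wild-type, and *Atp5s* the lowest at 120.

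The core subunits of complex I that receive electrons are *Ndufv1*, *Ndufv2* and *Ndufs1*. *Ndufv1*, which binds the flavin that accepts electrons from NADH, had a normalized count of 2698 in wild-type and 3560 in Npffr1-KO tissue. *Ndufv2*, an iron-sulfur subunit beside it, was at 2712 and 3584. *Ndufs1*, the largest core subunit, was at 2290 and 2845. All 3 were thus higher in Npffr1-KO tissue, the first by a log2 ratio of 0.40, the second by 0.40 and *Ndufs1* by 0.31.

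Further core subunits lie on the side of coenzyme Q. *Ndufs7*, which holds the last iron-sulfur cluster of complex I, was at 2106 in wild-type and 3000 in Npffr1-KO tissue. *Ndufs3* was at 2202 and 3125, and 49.3% of its sequence is shared with transcripts of other genes. *Ndufs8* was at 1133 and 1470. The log2 ratios were 0.51 for *Ndufs7*, 0.50 for *Ndufs3* and 0.38 for *Ndufs8*. After centring on genes of like length the core subunits stayed above 0, with a median of 0.28.

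Among the 29 accessory subunits of complex I the median log2 ratio was 0.44, and 24 of them were at least 25% higher. The share of all genes was 12.0%. After centring on length, 1 of the 29 was at least 25% higher, compared with 8.20% of all genes. With GENCODE length it was 13, compared with 9.25%. The highest ratio was that of *Ndufab1*, the mitochondrial acyl carrier protein, with 1867 in wild-type and 2791 in Npffr1-KO tissue and a log2 ratio of 0.58. *Ndufb8*, a subunit of the membrane arm, followed with 3146 and 4688. *Ndufa11* was at 1408 and 2054, with a log2 ratio of 0.54. It kept 0.52 after centring on length, the highest value in complex I, because its listed length of 2661 bases places it among longer genes. Its median transcript in the GENCODE annotation is 545 bases long, and centring on that length gave 0.40.

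The smallest ratios of the accessory subunits were those of *Ndufa3*, *Ndufc2* and *Ndufv3*. *Ndufa3* was at 2403 in wild-type and 2907 in Npffr1-KO tissue. *Ndufc2* was at 2636 and 3192, and *Ndufv3*, a flavoprotein-side subunit, at 3093 and 3778. Their log2 ratios of 0.27, 0.28 and 0.29 exceeded the median of genes of like length by at most 0.02. The core subunit *Ndufs1* with 0.31, *Ndufb2* with 0.29 and *Ndufb5* with 0.32 also stayed under 25%, which is 0.32 on the log2 scale.

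By their families the 12 Ndufa accessory subunits had a median log2 ratio of 0.44, the 10 Ndufb subunits one of 0.47 and the 7 other accessory subunits one of 0.36. After centring on listed length these medians were close together with 0.19, 0.21 and 0.21, and with GENCODE length they were 0.30, 0.33 and 0.24. Apart from *Ndufa3* and *Ndufa11*, the Ndufa subunits spanned log2 ratios from 0.35 for *Ndufa9* to 0.49 for *Ndufa1*. The Ndufb subunits past 25% spanned 0.39 for *Ndufb9* to 0.58 for *Ndufb8*, and the undivided wild-type values of the 29 ranged from 508 for *Ndufb2* to 3249 for *Ndufb9*. *Ndufa3* and *Ndufb9* had the highest levels per kilobase of the accessory subunits in wild-type tissue, with 6886 and 4991. The lowest levels of complex I were those of the accessory subunits *Ndufa11* with 529 and *Ndufs4* with 683 and of the core subunit *Ndufs1* with 846 per kilobase of listed length. *Ndufs4*, which is known as a disease gene of complex I, was at 1047 in wild-type and 1321 in Npffr1-KO tissue.

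A pair of genes named for complex I encodes no subunit of it. *Ndufa4*, whose protein is found with cytochrome c oxidase, was at 3995 in wild-type and 5346 in Npffr1-KO tissue, with a log2 ratio of 0.42. Its paralog *Ndufa4l2*, known to be induced by hypoxia, was at 1004 and 1136, with a log2 ratio of 0.18. Per kilobase, *Ndufa4* exceeded *Ndufa4l2* 7.98-fold in wild-type tissue. *Ndufa4l2* was 1 of the 4 genes at or below the median of genes of like length, by -0.03.

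Complex II, succinate dehydrogenase, links the tricarboxylic acid cycle to the chain and is encoded by nuclear genes alone. *Sdha*, the flavoprotein that oxidises succinate, was at 7161 in wild-type and 9148 in Npffr1-KO tissue. *Sdhb*, the iron-sulfur subunit, was at 3382 and 4790. The membrane anchors were at 4025 and 5606 for *Sdhc* and at 2358 and 3310 for *Sdhd*. All 4 were at least 25% higher in Npffr1-KO tissue, compared with 12.0% of all genes. Their log2 ratios were 0.35, 0.50, 0.48 and 0.49. *Sdha* is the longest of the 68 genes with 2859 bases. After centring on listed length the 4 genes lay close together, from 0.30 for *Sdhb* to 0.35 for *Sdha*. Only *Sdha* was then over 25% higher, compared with 8.20% of all genes. With GENCODE length it was instead the other 3, compared with 9.25% of all genes. *Sdhc*, *Sdhd* and *Sdhb* were then at 0.35, 0.36 and 0.37 and *Sdha* at 0.29. Centring on length together with mean left none of the 4 at least 25% higher.

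Complex III had the highest median log2 ratio of the 4 complexes with 0.52. At least 25% higher were 9 of its 9 genes, compared with 12.0% of all genes. *Cyc1*, which encodes cytochrome c1 and passes electrons to cytochrome c, had the highest ratio of all 68 genes, with 3223 in wild-type and 5227 in Npffr1-KO tissue, 1.62-fold. *Uqcrfs1*, the Rieske iron-sulfur protein that passes electrons to cytochrome c1, had the lowest of the complex, with 2966 and 3717. These catalytic partners thus stood at opposite ends before centring on length, with log2 ratios of 0.70 and 0.33. After it, *Uqcrh* with 0.08 and *Uqcr11* with 0.11 lay below *Uqcrfs1* with 0.15.

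The core proteins of complex III, *Uqcrc1* and *Uqcrc2*, face the matrix. *Uqcrc1* was at 5422 in wild-type and 7759 in Npffr1-KO tissue, and *Uqcrc2* at 3813 and 5287. Of the small subunits, *Uqcrq* was at 3072 and 4726 and *Uqcrb* at 3286 and 4968. *Uqcr10* was at 1668 and 2437, *Uqcr11* at 2392 and 3111, and the hinge protein gene *Uqcrh* at 3265 and 4163. *Cyc1*, *Uqcrq* and *Uqcrb* were the 3 of the 68 genes that were at least 1.5-fold higher, compared with 2.78% of all genes. Centring on length left a median of 0.33 and 5 of the 9 genes at least 25% higher, compared with 8.20% of all genes. These were *Cyc1*, *Uqcrq*, *Uqcrc1*, *Uqcrc2* and *Uqcrb*. The other 3 genes at least 25% higher after this centring were *Ndufa11*, *Sdha* and *Atp5f1*. With GENCODE length it was 6 of the 9 genes of complex III, compared with 9.25% of all genes. *Sdha* and *Atp5f1* were then under 25%, with 0.29 and 0.31. *Uqcrq* is listed with 1518 bases but has 504 in GENCODE, and its centred value was 0.51 with the first length and 0.48 with the second.

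Complex V had the lowest median log2 ratio with 0.39. At least 25% higher were 12 of its 17 genes, compared with 12.0% of all genes. After centring on length it was 1 gene, compared with 8.20% of all genes, and with GENCODE length 5, compared with 9.25%. The catalytic F1 head of complex V is built from alpha and beta subunits around a stalk of gamma, delta and epsilon. *Atp5a1*, alpha, was at 15519 in wild-type and 19764 in Npffr1-KO tissue. *Atp5b*, beta, was at 27361 and 35087. The stalk genes were at 6375 and 8370 for *Atp5c1*, 5670 and 7830 for *Atp5d*, and 1385 and 1854 for *Atp5e*. The ratios of these 5 genes spanned a narrow range, from 0.35 for *Atp5a1* to 0.47 for *Atp5d* on the log2 scale. Per kilobase, *Atp5b* exceeded *Atp5a1* 2.29-fold in wild-type tissue, although the head holds alpha and beta in equal number.

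The c-ring, the rotor in the membrane, is built from identical c subunits that 3 genes encode. The mature proteins of the 3 genes are the same, and the genes differ in the leader that directs import into mitochondria. *Atp5g3* was at 5983 in wild-type and 6490 in Npffr1-KO tissue, with a log2 ratio of 0.12. *Atp5g2* was at 4593 and 6081, with a log2 ratio of 0.40. *Atp5g1* was at 1578 and 1971, with a log2 ratio of 0.32 that lay just under this size. Their sum was 12154 in wild-type and 14542 in Npffr1-KO tissue, a ratio of 1.20. Per kilobase, *Atp5g3* made up 47.4% of the c-ring transcripts in wild-type and 42.8% in Npffr1-KO tissue, and *Atp5g2* 41.1% and 45.3%. The share of *Atp5g3* was thus lower and that of *Atp5g2* higher in Npffr1-KO tissue on this scale. Which of them was ahead there depends on the length used, since *Atp5g3* stayed ahead with 44.6% to 41.8% in undivided values and with 48.4% to 47.7% per kilobase of GENCODE length. *Atp5g1* contributed 11.5% and 11.9%, but 3.77% and 3.94% per kilobase of GENCODE length, which is 2675.5 bases in place of 798. *Atp5g3* lay below genes of like length by -0.15, the lowest value of the 68 genes. These shares rest on 1 value per genotype and gene, and 40.2% of the *Atp5g2* sequence is shared with other genes.

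The peripheral stalk holds the head still against the rotor. Its genes were at 4849 and 6658 for *Atp5f1*, at 4787 and 6473 for *Atp5o*, and at 3517 and 4501 for *Atp5h*. *Atp5j*, coupling factor 6, was at 3127 and 3557, with a log2 ratio of 0.19 that lay below genes of like length by -0.08. The small membrane subunits help to pair ATP synthases, and *Atp5k* and *Atp5j2* had the highest ratios of complex V. *Atp5k* was at 1102 and 1629, *Atp5j2* at 2572 and 3793, and *Atp5l* at 3553 and 4907. Their log2 ratios were 0.56, 0.56 and 0.47.

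The last pair is named for complex V but encodes no subunit. *Atp5s*, factor B, had the lowest value of the 68 genes with 178 in wild-type and 216 in Npffr1-KO tissue. *Atp5sl*, known from the assembly of complex I, was at 686 and 737, with the smallest log2 ratio of the 68 genes, 0.10. Of the 4 genes at or below the median of genes of like length, *Atp5sl* and *Ndufa4l2* are no subunits, whereas *Atp5g3* and *Atp5j* are. Restricting the list to the 64 subunits left 55 genes at least 25% higher and a median log2 ratio of 0.44.

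**Figure D3:**
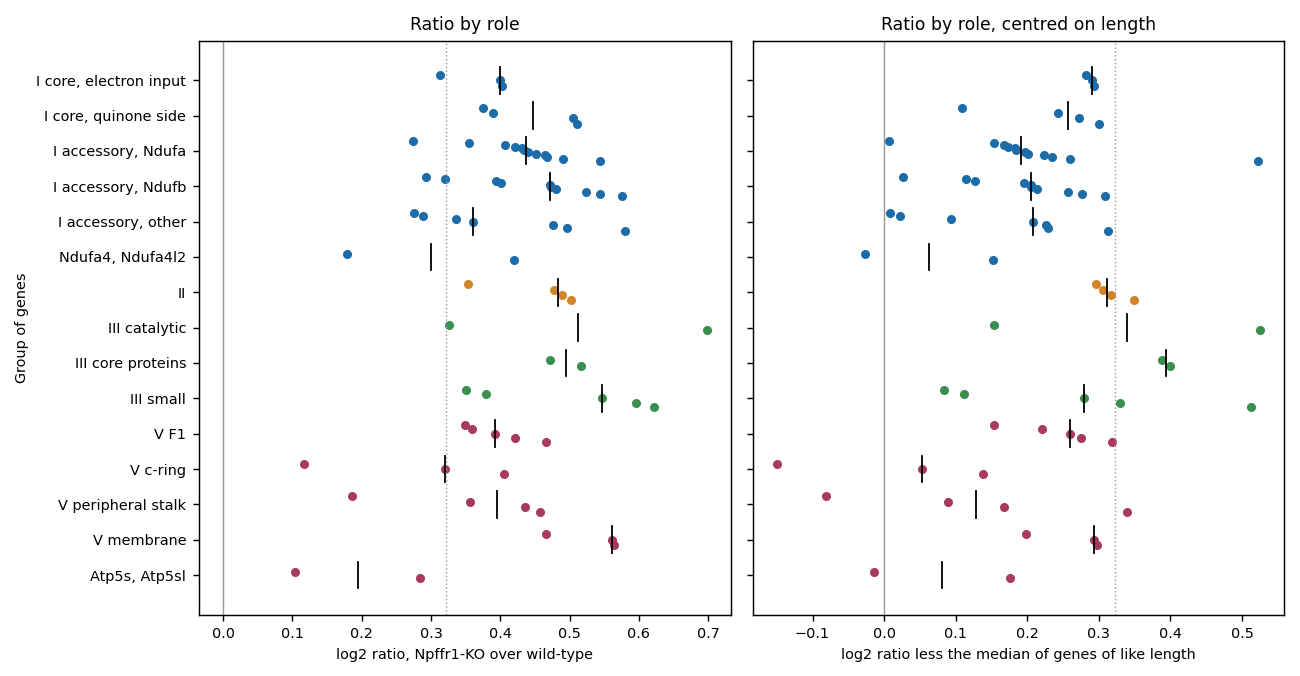
The log2 ratio of Npffr1-KO over wild-type is plotted for each gene (points) by role within complexes I, II, III and V, as measured (left) and less the median of genes of like length (right); black bars are group medians, the solid line is 0 and the dotted line a value 25% higher. All 68 points lie right of 0 on the left and 64 on the right, where *Cyc1*, *Ndufa11* and *Uqcrq* stand above 0.50.

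The 12 genes under 25% reached up to 24.9%, and the lowest of the 56 above it was 25.3% higher, so that the count depends on where the threshold stands. With a threshold of 1.1-fold, 66 of the 68 genes passed, compared with 31.3% of all genes. Counting error alone gave a standard error of the log2 ratio between 0.0066 for *Atp5b* and 0.083 for *Atp5s*. It was estimated from the value of a single read and is approximate. The lowest log2 ratios, 0.10 and 0.12 for *Atp5sl* and *Atp5g3*, exceeded their counting errors of 0.044 and 0.015, which do not cover the spread between samples.

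In the RefSeq table the 68 genes lay on 19 chromosomes, 2 of them on the X chromosome, and no pair of them were neighbours among protein-coding genes. Respiratory genes are known for processed pseudogenes, whose reads cannot always be told from those of the parent gene. In GENCODE transcripts 11 of the 68 genes shared at least 20% of their stretches of 31 bases with transcripts of another gene, and their values are uncertain. Among them were *Atp5l* with 69.7%, *Uqcrb* with 54.3%, *Ndufs3* with 49.3%, *Atp5h* with 46.9% and *Atp5g2* with 40.2%. The median log2 ratio was 0.46 for the 11 genes and 0.42 for the others. For the 32 genes that shared under 1% it was 0.40.

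Respiratory genes are known targets of NRF1, of ETS factors such as GABP, of YY1 and of estrogen-related receptors (ERR), so their promoters were searched for 4 motifs on both strands. RefSeq gave 63 windows for 57 of the 68 genes, each of 300 bases, 250 before and 50 after the start site, in build GRCm38.p6. The exact NRF1 motif, the capitals in the sequences that follow, was in 4 windows or 6.35%, compared with 0.971% of all windows and 1.78% of those of genes past the minimum mean. With at most 1 mismatch these shares were 34.9%, 6.33% and 11.2%. The 4 exact matches are shown because this motif is the longest searched, with 30 bases around each, 5′ to 3′ on the strand of the gene and with the motif in capitals. A match is a description of the letters and not evidence of binding.
*Atp5k*, chr5:108434430-108434459, minus strand: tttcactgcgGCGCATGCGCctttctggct
*Uqcrc1*, chr9:108936668-108936697, plus strand: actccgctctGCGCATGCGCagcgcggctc
*Atp5g2*, chr15:102671070-102671099, minus strand: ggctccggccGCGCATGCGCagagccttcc
*Ndufa11*, chr17:56717692-56717721, plus strand: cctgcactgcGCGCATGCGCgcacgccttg

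The median log2 ratio was 0.53 for these 4 genes and 0.42 for the 53 without the exact NRF1 motif, with overlapping ranges of 0.40 to 0.56 and 0.10 to 0.58. The ETS motif CCGGAAG was in 13 windows, 20.6%, compared with 8.86% of all windows and 15.3% of those of expressed genes. The 13 genes had a median log2 ratio of 0.47 and the other 44 one of 0.43, again with overlapping ranges.

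The YY1 motif AAGATGGC was in 12 windows of 11 genes, 19.0%, compared with 2.75% of all windows and 3.86% of those of expressed genes. It lay downstream of the start site in most of them, with its first base from base 23 to base 39 in 9 genes. The motif contains the letters ATG, so that it can overlap a start codon there. Of the genes named for complex V, *Atp5j2* has it there at base 24 and *Atp5sl* at base 27 from 1 of its start sites. The 7 matches in genes of complex I, which share this place with them, are shown with the motif in capitals.
*Ndufc1*, chr3:51408915-51408944, minus strand: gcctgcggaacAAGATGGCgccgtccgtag
*Ndufa9*, chr6:126849097-126849126, minus strand: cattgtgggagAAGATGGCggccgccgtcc
*Ndufa3*, chr7:3617384-3617413, plus strand: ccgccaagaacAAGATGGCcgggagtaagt
*Ndufs7*, chr10:80249462-80249491, plus strand: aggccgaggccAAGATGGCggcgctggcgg
*Ndufs6*, chr13:73328433-73328462, minus strand: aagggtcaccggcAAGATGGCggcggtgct
*Ndufs4*, chr13:114388045-114388074, minus strand: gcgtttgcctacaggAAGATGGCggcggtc
*Ndufb8*, chr19:44555393-44555422, minus strand: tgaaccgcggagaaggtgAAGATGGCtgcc

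The median log2 ratio was 0.36 for the 11 genes with the YY1 motif and 0.43 for the 46 without it. Both the lowest ratio, that of *Atp5sl*, and one of the highest, that of *Ndufb8*, belonged to genes with the motif. The ERR motif TNAAGGTCA, in which N is any base, was in 3 windows, 4.76%, compared with 1.28% of all windows and 0.772% of those of expressed genes. Its 3 matches are shown because they are in genes of 3 different complexes. In *Atp5g3* and *Sdhd* the motif stands on the opposite strand.
*Atp5g3*, chr2:73911359-73911388, minus strand: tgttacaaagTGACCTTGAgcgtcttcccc
*Sdhd*, chr9:50603800-50603829, minus strand: tttccgggttgtagagTGACCTTGAgccct
*Ndufb4*, chr16:37654406-37654435, minus strand: ttcctgagccTGAAGGTCAgactcgagagg

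Their log2 ratios were 0.12 for *Atp5g3*, 0.49 for *Sdhd* and 0.48 for *Ndufb4*. None of the 4 motifs was in the windows of 29 of the 57 genes, and 3 genes had more than 1 of them. Among the 57 genes with a window, the ratios of genes with a motif thus overlapped those of genes without it. The highest log2 ratio among these genes was 0.58. *Cyc1*, *Uqcrq* and *Uqcrb*, which had the highest ratios of the whole list, had no window and were not searched. Each motif was more frequent in these windows than in all windows. Beside windows of expressed genes, however, the ETS share was close, with 20.6% compared with 15.3%. The NRF1 and ERR shares rested on only 4 and 3 windows.

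The regulators of these genes were less uniform than the genes themselves. Of 13 regulators past the minimum mean, 10 had a higher value in Npffr1-KO tissue, compared with 51.2% of all genes. At least 25% higher were 4 regulators, compared with 12.0% of all genes. These were the coactivators *Ppargc1b*, at 200.5 in wild-type and 373.9 in Npffr1-KO tissue, and *Ppargc1a*, at 135.7 and 241.4, the receptor *Esrra*, at 876 and 1293, and *Tfb1m*, which modifies mitochondrial ribosomal RNA, at 124 and 158. Their log2 ratios were 0.90, 0.83, 0.56 and 0.35. Of the factors whose motifs were searched, *Nrf1* had a log2 ratio of 0.01, *Gabpa* one of -0.11 and *Yy1* one of 0.07, while the estrogen-related receptor genes *Esrra* and *Esrrg* had 0.56 and 0.32. The median of the 13 was 0.14, and 0.20 after centring on length.

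Genes of neighbouring parts of the chain mostly had higher values in Npffr1-KO tissue, too. Of all genes, 51.2% were higher and 12.0% were at least 25% higher. Of 16 complex IV genes, 16 had a higher value and 13 were at least 25% higher, with a median log2 ratio of 0.46. The 3 most abundant were *Cox8a* with 0.32, *Cox6a1* with 0.41 and *Cox4i1* with 0.42. Of 19 genes of electron carriers and coenzyme Q, 18 were higher and 8 were at least 25% higher, with a median of 0.31. The most abundant of them were *Etfb*, which feeds electrons from fatty acid oxidation, with 0.85, *Cycs*, cytochrome c, with 0.65, and *Etfa*, the partner of *Etfb*, with 0.48. *Cycs* and *Cyc1*, the electron partners on both sides of the transfer from complex III, were thus both above 0.60.

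Assembly factors differed less, read beside the same 51.2% and 12.0% of all genes. Of 26 assembly factors, 24 were higher and 10 were at least 25% higher, with a median log2 ratio of 0.25. Of 77 genes of the mitochondrial ribosome, which translates the mitochondrial subunits, 77 were higher and 32 were at least 25% higher, with a median of 0.31. After centring on length the medians were 0.14 for assembly factors, 0.14 for the mitochondrial ribosome, 0.19 for complex IV and 0.20 for carriers and coenzyme Q, compared with 0.21 for the 68 genes. The 3 genes that go with ATP synthase but lie outside the symbol rule, *Atpif1*, *Usmg5* and 2010107E04Rik, had log2 ratios of 0.18, 0.44 and 0.43.

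**Figure D4:**
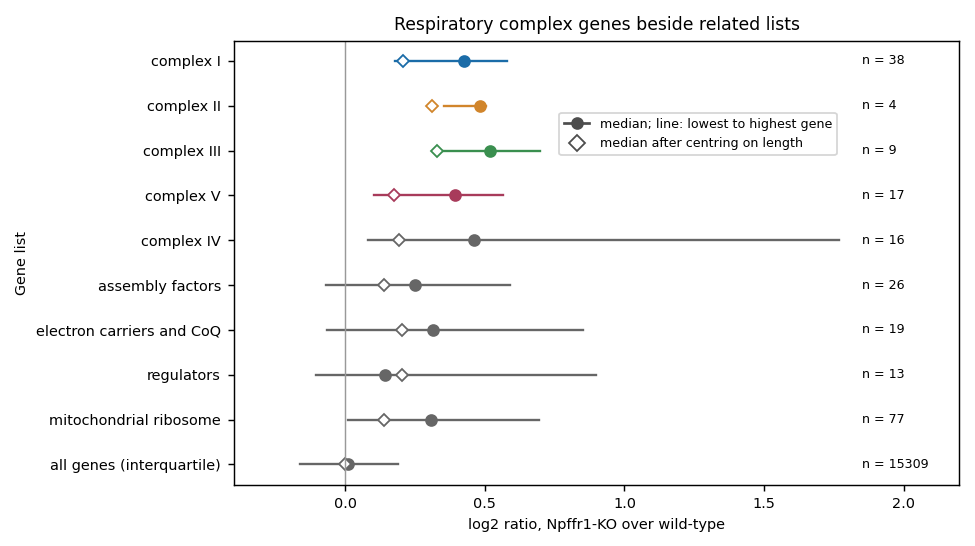
The median log2 ratio of Npffr1-KO over wild-type (filled circle), the range over the genes (line) and the median after centring on genes of like length (diamond) are plotted for the 4 complexes and related gene lists; for all 15309 genes the line spans the interquartile range. Medians of complexes I, II, III and V lie between 0.39 and 0.52, that of complex IV at 0.46 and those of assembly factors and regulators at 0.25 and 0.14.

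Markers of cell types were read in the same values, and their part in the result was not tested. Adipocyte markers were abundant in this tissue, which is labelled as adipose, with a sum over 11 genes of 533465 in wild-type and 556227 in Npffr1-KO tissue and a median log2 ratio of 0.10. Of the 11, 7 were higher, compared with 51.2% of all genes, and 2 at least 25% higher, compared with 12.0%. These 2 were *Lep* at 4210 and 8703 and *Pparg* at 3864 and 5098. The highest means were those of *Fabp4*, *Lpl* and *Cfd*, with log2 ratios of 0.15, 0.10 and -0.13. Of 9 thermogenic adipocyte markers with a mean of at least 10, 6 were at least 25% higher, compared with 12.0% of all genes. Their median log2 ratio was 1.55, and 1.42 after centring on length. The sum over the list of 10 was 2092 and 5917. The most abundant by mean were *Ucp1* at 438 and 1287, *Cidea* at 304 and 1427, and *Cox8b* at 460.2 and 1567. Among markers past the minimum mean, *Prdm16* was lower in Npffr1-KO tissue, at 439.9 and 415.4. *Zic1* at 11.5 and 11.8 and *Dio2* at 25.9 and 31.7 were less than 25% higher. *Elovl3* was under the minimum mean, at 0.452 and 0.511. The thermogenic list overlaps others, since *Cox7a1* and *Cox8b* were also counted in complex IV and *Ppargc1a* among the regulators. The sum of the thermogenic list differed by 3825 and that of the 68 respiratory genes by 70778. Marker sums do not measure how much respiratory RNA a cell type holds, and this was not tested.

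Skeletal muscle, which is rich in mitochondria, had 11 of its 15 markers at a mean of at least 10, and 9 of these were at least 25% higher. Their sum was 2637 and 3501, most of it *Des* at 1987 and 2362, and *Acta1* was at 171 and 410. The log2 ratios of the 11 genes ranged from 0.25 for *Des* to 1.26 for *Acta1*, with a median of 0.60, and *Tnnt3* was at 90.5 and 152. The other 4 markers were under the minimum mean, among them *Myh4* at 0.157 and 0.164 and *Myog* at 1.37 and 1.84. The sum of the 4 heart muscle markers was 199.9 and 213, and that of the 6 keratinocyte markers 93.7 and 87.3. Lymphocyte markers summed to 11307 and 14750, with 4 of 7 at least 25% higher. Macrophage markers summed to 17266 and 20209, with 2 of 5, and erythroid markers to 136582 and 155584, with 1 of 5. These counts stand beside 12.0% of all genes and rest on few markers. Median log2 ratios of lymphocyte, macrophage and erythroid markers were 0.33, 0.29 and 0.22. After centring on length they were 0.17, 0.16 and -0.03, and that of skeletal muscle markers was 0.55. Fibroblast markers were mostly lower in Npffr1-KO tissue, with sums of 483664 and 385766. At least 20% lower were 2 of 4, compared with 11.6% of all genes. *Dpt* was higher, at 14529 and 15027, and the sums were mostly *Col1a1* and *Col1a2*. The median log2 ratio of the fibroblast markers was -0.33, and -0.22 after centring on length.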

How the data were processed

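Total RNA of iAT was extracted with TRIzol and sequenced by the authors, and samples were grouped by genotype from their titles. The deposited table holds, per gene and genotype, a signal, namely read counts after library size normalization by the authors, beside the gene length in bases. Bowtie2, RSEM and DESeq2 are named in the submitters' processing notes, without versions. No genome build or annotation is given in the sources used here. The columns of the authors' own comparison, which hold log2 fold changes, p-values, adjusted p-values and a mark of direction, were not used, nor was a second table that repeats 90 genes.

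The 2 values of a gene are not plain library means. No gene had a genotype value of 0, and for the 585 genes with the lowest means, 0.161 to 0.182, which fall on 6 values as single reads would, the log2 ratio never exceeded 0.07 in size. Ratios of genes with few reads are thus drawn toward 0. Total reads per library are unknown. The approximate counting error was taken from these single reads, and it covers counting error only.

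Log2 ratios of Npffr1-KO over wild-type were computed without a pseudocount for the 15309 genes whose mean over both genotypes was 10 or more, and genes at least 25% higher or at least 20% lower, the same fold either way, were counted. Ratios were centred on the median of 20 classes of listed length. The centring was tested on simulated data with raised genes drawn at random over all lengths. It was not tested for raised genes gathered among short genes, as the respiratory genes are here. Python 3.11.15, numpy 2.4.6, pandas 2.3.3, scipy 1.17.1 and matplotlib 3.10.9 were used. Alternatives were pseudocounts, minimum means, folds, other centrings, subunits alone and a mismatch in the NRF1 motif. Centring on mean, on length with mean and on GENCODE length, the restriction to genes with little shared sequence, and levels per kilobase of GENCODE length or, for the c-ring shares, undivided, were added after the data were seen. Transcripts came from GENCODE M21, and promoters, matched by gene ID, from RefSeq.

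Genes and lists were chosen with earlier results of these data known. Each gene found by the symbol rule could be named, core subunits and extremes first. Of other lists, the 3 genes with the highest mean could be named, and those past these sizes where they were 5 or fewer. *Nrf1*, *Esrrg*, *Prdm16*, *Zic1*, *Dio2*, *Elovl3*, *Cox7a1*, *Myh4* and *Myog* were named beyond this rule. The values of 1 of the 68 genes are not reported here, although it is part of the counts, sums and medians.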

Additional observations from a re-analysis of the deposited data

How the results depend on the processing

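All 7 medians and counts of the 68 genes kept their direction under each alternative that was run. No paired analysis was possible because the table holds 1 value per genotype and its columns carry no replicate numbers, and for the same reason no replicate could be left out. Medians that differed at the second decimal, from log2 ratios of 0.43 for the 68 genes, 0.43 for complex I, 0.48 for complex II, 0.52 for complex III and 0.39 for complex V, are given in that order of groups. A pseudocount of 10 gave 0.42 for the 68 genes and 0.42 for complex I. Centring on the median of all genes gave 0.42, complex I 0.42, complex III 0.51 and complex V 0.38. Centring on genes of like length gave 0.21, 0.21, 0.31, 0.33 and 0.18, and the count of genes at least 25% higher went from 56 to 8. Centring on like length and mean gave 0.21, 0.20, 0.24, 0.34 and 0.18, with 9 genes, where 9.37% of all genes passed. Centring on GENCODE length, which 14352 genes had, gave 0.30, 0.29, 0.36, 0.37 and 0.31, with 29 genes, where 9.25% of all genes passed, and left *Atp5g3* as the only one of the 68 below 0. Centring on genes of like mean gave 0.40, complex I 0.42, complex III 0.46 and complex V 0.33, with 50 genes. The subunits alone gave 0.44, and 0.40 for complex V. The 32 genes with little shared sequence gave 0.40. A threshold of 1.5-fold left 3 genes. The order of complexes by level became II, V, III, I without division by length, which moved complex II from place 3 to place 1, and 1 mismatch raised the share of windows with the NRF1 motif from 6.35% to 34.9%. The cause of these shifts was not tested. A threshold of 1.1-fold gave 66 genes, and centring on the median of all genes, like the subunits alone, gave 55, so that these counts and the 50 above lay within 1.5 times 56.

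The lack of a value per sample limits every statement here: whether a difference between the 2 genotypes exceeds the spread between samples was not tested.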
